A study of Mus musculus with 48 samples.

Results

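The 10 genes described here encode subunits of the main families of glutamate receptor in the brain, the AMPA receptor subunits *Gria1*, *Gria2*, *Gria3* and *Gria4*, the NMDA receptor subunits *Grin1*, *Grin2a* and *Grin2b*, the kainate receptor subunit *Grik2* and the metabotropic receptors *Grm3* and *Grm5*. They were chosen by name, and the Ensembl identifiers of the count tables were matched to their symbols. The tables list 46983 genes, of which 19970 had more than 10 counts in total and were tested, and all 10 receptor genes were among them.

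The study followed the mouse brain after middle cerebral artery occlusion (MCAO), in which the artery was exposed through the skull, coagulated and cut so that a small infarct formed in the parietal cortex. RNA of 48 libraries in 11 groups was measured in bulk. The control group held 4 libraries of intact cortex, each sham group held 4 libraries of mice that had the surgery without the occlusion, and each MCAO group held 5 libraries, except at 24 h with 4. Sham and MCAO groups were collected at 3 h, 12 h and 24 h and on days 3 and 7, all from male C57Black/6 mice of 3 months with no other allele or agent named. The tissue was taken around the injury and included unaffected tissue, so each MCAO value is a mixture of infarct and surroundings. In the labels the piece of tissue is cortical, whereas the study's text also speaks of nearly a whole hemisphere. The study used several mice for each condition, but the labels do not tie a library to a mouse, so the p-values below measure the spread between these libraries.

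Glutamate is the main excitatory transmitter of the brain. AMPA receptors carry the fast current at excitatory synapses, NMDA receptors open when glutamate arrives at a membrane that is already depolarized and let calcium in, kainate receptors act on both sides of the synapse, and metabotropic receptors signal through G proteins. In ischemia glutamate builds up outside cells, and the overactivation of its receptors, in particular the entry of calcium through NMDA receptors, is a textbook cause of neuronal death.

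The libraries were made with a kit that reads the 3′ end of polyadenylated RNA (QuantSeq), so a count stands for a transcript and not for its length, and splice forms, RNA editing and protein are not seen. A library held between 1522668 and 2826735 counts on genes, with a median of 1935856. Behind the values of *Grin2b* stood 1581 to 4000 counts per library, but only 20 to 88 behind those of *Grik2*, 34 to 169 behind *Grm3* and 65 to 293 behind *Gria4*, so counting error weighs most on the last 3. Levels are given below as counts per 1000000 (CPM) of the library size after TMM scaling, a normalization that centres the bulk of the genes.

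Of the 48 libraries, 6 stood apart from the rest on the first 2 principal components of the 9880 genes with a mean above 10 CPM. These were replicate A of sham 12 h, D of MCAO 12 h, C and E of MCAO day 3, D of sham day 7 and C of MCAO day 7. Replicates C and E of MCAO day 3 and C of MCAO day 7 also held the highest sums of 10 microglial genes, at 3175, 2891 and 4519 CPM, against 342 to 608.5 CPM in the sham groups of those days. For the changes of single genes on days 3 and 7 that passed and are given below, and for the marker sums of those days, the value without these 6 libraries is given as well. The 12 neuronal genes summed to 7422 CPM or more in all 48 libraries. Fewer neurons and less receptor RNA per neuron cannot be told apart in bulk tissue.

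The receptor genes as a group were lower in the MCAO libraries than in the others. The mean of log2(CPM + 1) over the 10 genes ranged from 7.24 to 7.98 with a median of 7.81 in the 24 MCAO libraries, and from 7.98 to 8.11 with a median of 8.06 in the 24 sham and control libraries. Of the MCAO libraries 23 lay under all sham and control libraries, the exception being replicate A of MCAO day 3. The lowest values were those of MCAO day 3 replicate C (7.24) and E (7.40), MCAO 12 h replicate C (7.47) and MCAO day 7 replicate C (7.53). These means are a description and were not tested.

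**Figure D1:**
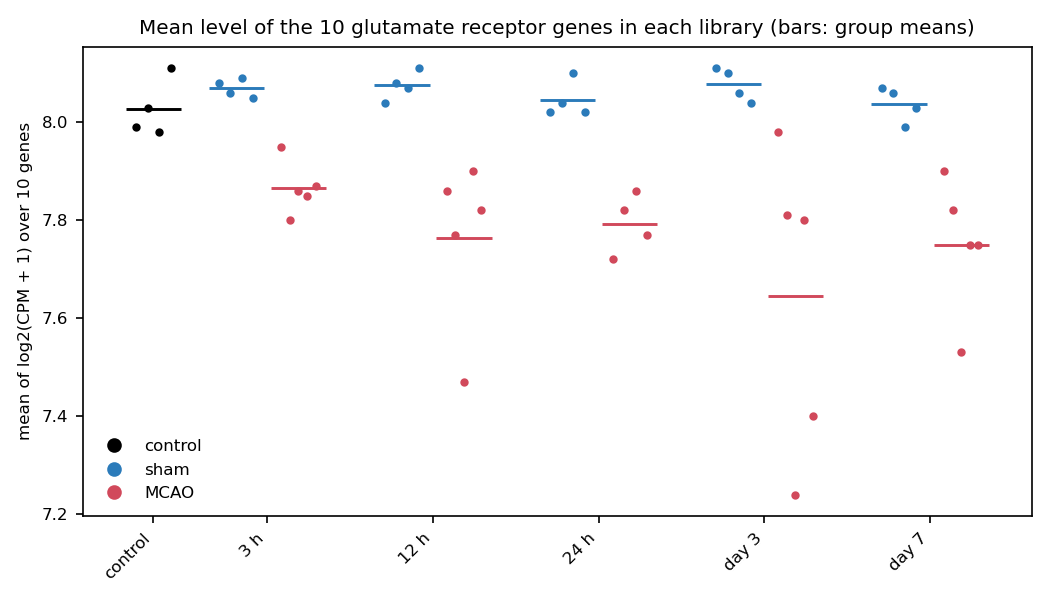
Mean of log2(CPM + 1) over the 10 glutamate receptor genes (y axis) in each of the 48 libraries by group (x axis), with a bar at each group mean. The sham and control libraries sit between 7.98 and 8.11, while the MCAO libraries reach down to 7.24 and 23 of 24 lie under all of the others.

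To ask which of the genes carried this difference, the MCAO effect was averaged over the 5 times in the quasi-likelihood test of edgeR, and p-values were adjusted over all genes by Benjamini-Hochberg. At an adjusted p under 0.05, 7 of the 10 genes were lower after MCAO and none was higher, against 5.11% of all genes tested that were lower and 9.18% that were higher. The 7 were *Gria2*, *Gria3*, *Gria4*, *Grin1*, *Grin2a*, *Grin2b* and *Grm3*, and the other 3, *Gria1*, *Grm5* and *Grik2*, did not pass. The median log2 change of the 10 was -0.35, beside 0.03 over all genes tested. None reached the stricter call of the study, an adjusted p under 0.01 with an absolute log2 change over 0.58, which 4.89% of all genes did. DESeq2 called none of the 10 either. At an unadjusted p under 0.05 there were 7, beside 26.4% of all genes. The same 7 genes passed at 0.05 in all 8 other settings of the fit, among them the scaling to spike-ins and the fit without the 6 libraries that stood apart, and in all 44 fits that left out 1 MCAO or sham library.

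**Figure D2:**
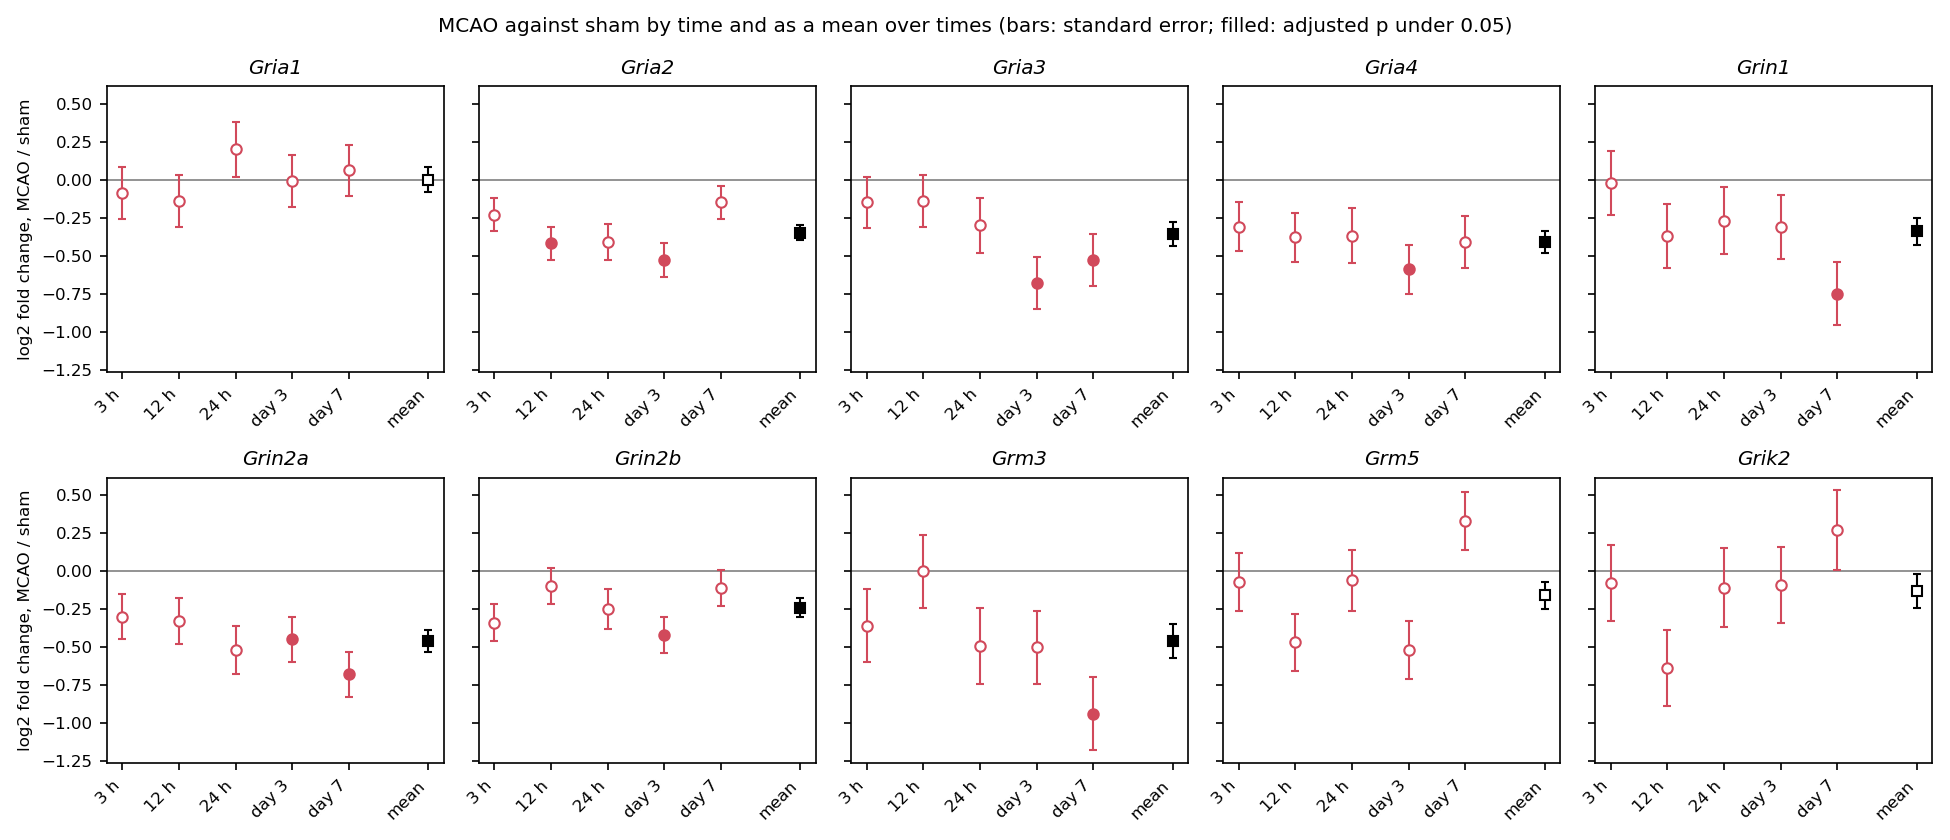
Log2 fold change of MCAO over sham (y axis) at each time and as the mean over times (x axis, square) for the 10 genes, with standard errors and filled marks at an adjusted p under 0.05. Filled marks lie under 0 in every panel that has one, and *Gria1*, *Grm5* and *Grik2* have none.

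By time, the receptor genes past the test were mainly those of days 3 and 7, the days on which more of all genes passed as well. At 3 h 0 of the 10 passed an adjusted p of 0.05 in edgeR's quasi-likelihood test, where 0.28% of all genes did, and 3 had an unadjusted p under 0.05 (8.45% of all genes). At 12 h *Gria2* alone passed (1.39% of all genes). At 24 h 0 passed (0.23% of all genes), again with 3 at an unadjusted p under 0.05 (8.8% of all genes). On day 3 the count was 5, all lower (8.23% of all genes, of which 1.69% lower). By day 7 it was 4, all lower (9.24% of all genes, 3.98% lower). The stricter call was met by *Gria3* on day 3, when 4.02% of all genes met it, and by *Grin2a* and *Grm3* on day 7, when 3.5% did. At 3 h, 12 h and 24 h 0 of the 10 met it, beside 0.11%, 0.411% and 0.0901% of all genes, and DESeq2 called 0 there as well. The median log2 change of the 10 genes was -0.19 at 3 h, -0.35 at 12 h, -0.29 at 24 h, -0.47 on day 3 and -0.28 on day 7.

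Whether the MCAO effect differed between the times was tested directly with edgeR's quasi-likelihood test over all 5 times. None of the 10 genes passed, where 2.16% of all genes did at an adjusted p of 0.05 and 0.491% at 0.01, and 1 gene, *Grm5*, had an unadjusted p under 0.05 (17.8% of all genes). Its adjusted p was 0.198. DESeq2 called 0 of the 10 in this test too. The sets of genes that passed on different days are therefore not shown to differ. *Gria2* on day 3 passed in all 8 other settings of the fit and in all 9 fits with 1 library left out. *Grin2a* and *Grm3* on day 7 also passed in all 9 such fits, *Grin2a* in every other setting but spike-in scaling and *Grm3* in every other setting but that without the 6 libraries that stood apart, so that 1 gene passed without these on day 3 (*Gria2*) and 1 on day 7 (*Grin2a*). Other calls depended on single libraries. With 1 library left out, the count on day 3 was 1 without MCAO replicate C, 2 without E, 3 without sham replicate A or C or MCAO replicate D, 6 without MCAO replicate A, with *Grm5* as the gene added, and 4 otherwise. On day 7 it was 2 without sham replicate D or MCAO replicate C and otherwise 3 or 4, and with spike-in scaling *Grm3* alone passed there. *Gria2* at 12 h passed in 2 of 9 such fits (without sham replicate A or MCAO replicate B), and did not pass with spike-in scaling, without a filter or with only the groups compared. At 24 h *Grin2a* passed without MCAO replicate C, and *Gria2* passed without the 6 libraries and in DESeq2. The stricter call of *Gria3* on day 3 held with 1 library left out only where that library was MCAO replicate A. Without MCAO replicate D *Gria4* met it in place of *Gria3*. On day 7 *Grin2a* lost the call in 2 of 9 such fits, those without sham replicate A or MCAO replicate C. *Grm3* lost it in these fits and also without sham replicate C or D or MCAO replicate D or E.

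Upstream sequence could be read for 5 of the 10 genes, from the RefSeq promoters of GRCm38.p6 (250 bases before the start of the transcript to 30 after it). Those of *Gria2*, *Grin1* and *Grm3* are shown, since these genes stand for 3 receptor families among the genes that fell. All 3 lie on the minus strand, at chr3:80802806-80803085 for *Gria2*, chr2:25319158-25319437 for *Grin1* and chr5:9725323-9725602 for *Grm3*, and are printed 5′ to 3′. In *Grm3* the RefSeq start lies upstream of the Gencode gene model whose span is given below, so this window does not reach into that model, whereas in *Gria2* and *Grin1* both starts are the same. Capitals mark matches to an E-box (CACGTG) in *Grin1* and to a GC box (GGGCGGG) in *Grm3*, where the 2 matches overlap. *Gria2* held no match to any of the 4 motifs searched.
Gria2: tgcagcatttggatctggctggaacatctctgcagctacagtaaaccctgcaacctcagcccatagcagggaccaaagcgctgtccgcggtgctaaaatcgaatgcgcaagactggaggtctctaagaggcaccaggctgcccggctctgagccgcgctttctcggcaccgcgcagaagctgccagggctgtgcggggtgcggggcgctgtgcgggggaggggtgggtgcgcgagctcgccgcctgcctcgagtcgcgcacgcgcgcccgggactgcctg
Grin1: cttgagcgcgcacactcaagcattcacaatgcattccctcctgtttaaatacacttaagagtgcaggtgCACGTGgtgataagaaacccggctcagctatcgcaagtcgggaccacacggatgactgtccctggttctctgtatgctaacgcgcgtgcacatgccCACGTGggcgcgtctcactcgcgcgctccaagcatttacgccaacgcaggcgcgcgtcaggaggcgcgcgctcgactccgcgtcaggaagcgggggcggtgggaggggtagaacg
Grm3: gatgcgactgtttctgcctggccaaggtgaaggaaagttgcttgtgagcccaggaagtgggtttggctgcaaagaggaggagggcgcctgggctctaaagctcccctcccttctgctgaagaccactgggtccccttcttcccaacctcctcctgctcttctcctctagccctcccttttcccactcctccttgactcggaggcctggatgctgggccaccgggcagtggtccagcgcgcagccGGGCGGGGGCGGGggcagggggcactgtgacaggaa
Searched on both strands, CACGTG was held by 6.79% and GGGCGGG by 25% of 32851 promoters of the same length. The cAMP response element TGACGTCA (1.74% of promoters) and the core of the silencer element RE1 (0.0335%) were in none of the 5. The GC content was 66.4% in *Gria2*, 60.4% in *Grin1* and 63.6% in *Grm3*, where the median of all promoters was 52.5%. A match is a run of letters and was not tested for binding.

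*Gria2* (ENSMUSG00000033981.14, chromosome 3, 80681450 to 80802835, minus strand of GRCm38) encodes the subunit whose edited form keeps calcium out of AMPA receptors. It was the gene whose groups were apart at most times. At 3 h the MCAO libraries held 887.2, 849.1, 820.9, 846.6 and 950.3 CPM and the sham libraries 1049, 1035, 1016 and 987.7 CPM. At 24 h the values were 757.5, 776.3, 797.7 and 799.8 CPM after MCAO and 987.3, 1053, 1088 and 1027 CPM in sham. On day 3 they were 947.5, 757.3, 607.6, 710 and 619.5 CPM after MCAO and 1069, 1087, 1030 and 1025 CPM in sham. At each of these times every MCAO library lay under every sham library of its time, as at 12 h, where the MCAO libraries spanned 723.8 to 820.6 CPM and the sham libraries 854.8 to 1206 CPM. The groups overlapped on day 7, with 653.7 to 953.1 CPM after MCAO and 826.5 to 1022 CPM in sham. All 24 MCAO libraries were under the median of the sham and control libraries (1024 CPM), and 16 were under all 24 of those.

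Averaged over times *Gria2* was at 78.5% of the sham level, with 793.4 CPM after MCAO and 1010 CPM in sham (log2 change -0.35, SE 0.05, adjusted p = 1.30e-06 in edgeR's quasi-likelihood test). At single times it passed at 12 h (log2 change -0.42, SE 0.11, adjusted p = 0.0389) and on day 3 (log2 change -0.53, SE 0.11, adjusted p = 0.00106). At 24 h the change was as large as at 12 h, -0.41, but the adjusted p was 0.16. Without the 6 libraries that stood apart the change on day 3 was -0.39 with an adjusted p of 0.0358.

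Groups that did not overlap were few among all genes. At 3 h 1.31% of all genes had every MCAO library under every sham library, and of the 10 receptor genes *Gria2* and *Gria4* did. At 12 h (1.26% of all genes) and at 24 h (2.08%) it was *Gria2*. On day 3 (2.81%) it was *Gria2*, *Gria4* and *Grin2a*, and on day 7 (5.11%) it was *Gria3*, *Grin1*, *Grin2a* and *Grm3*.

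**Figure D3:**
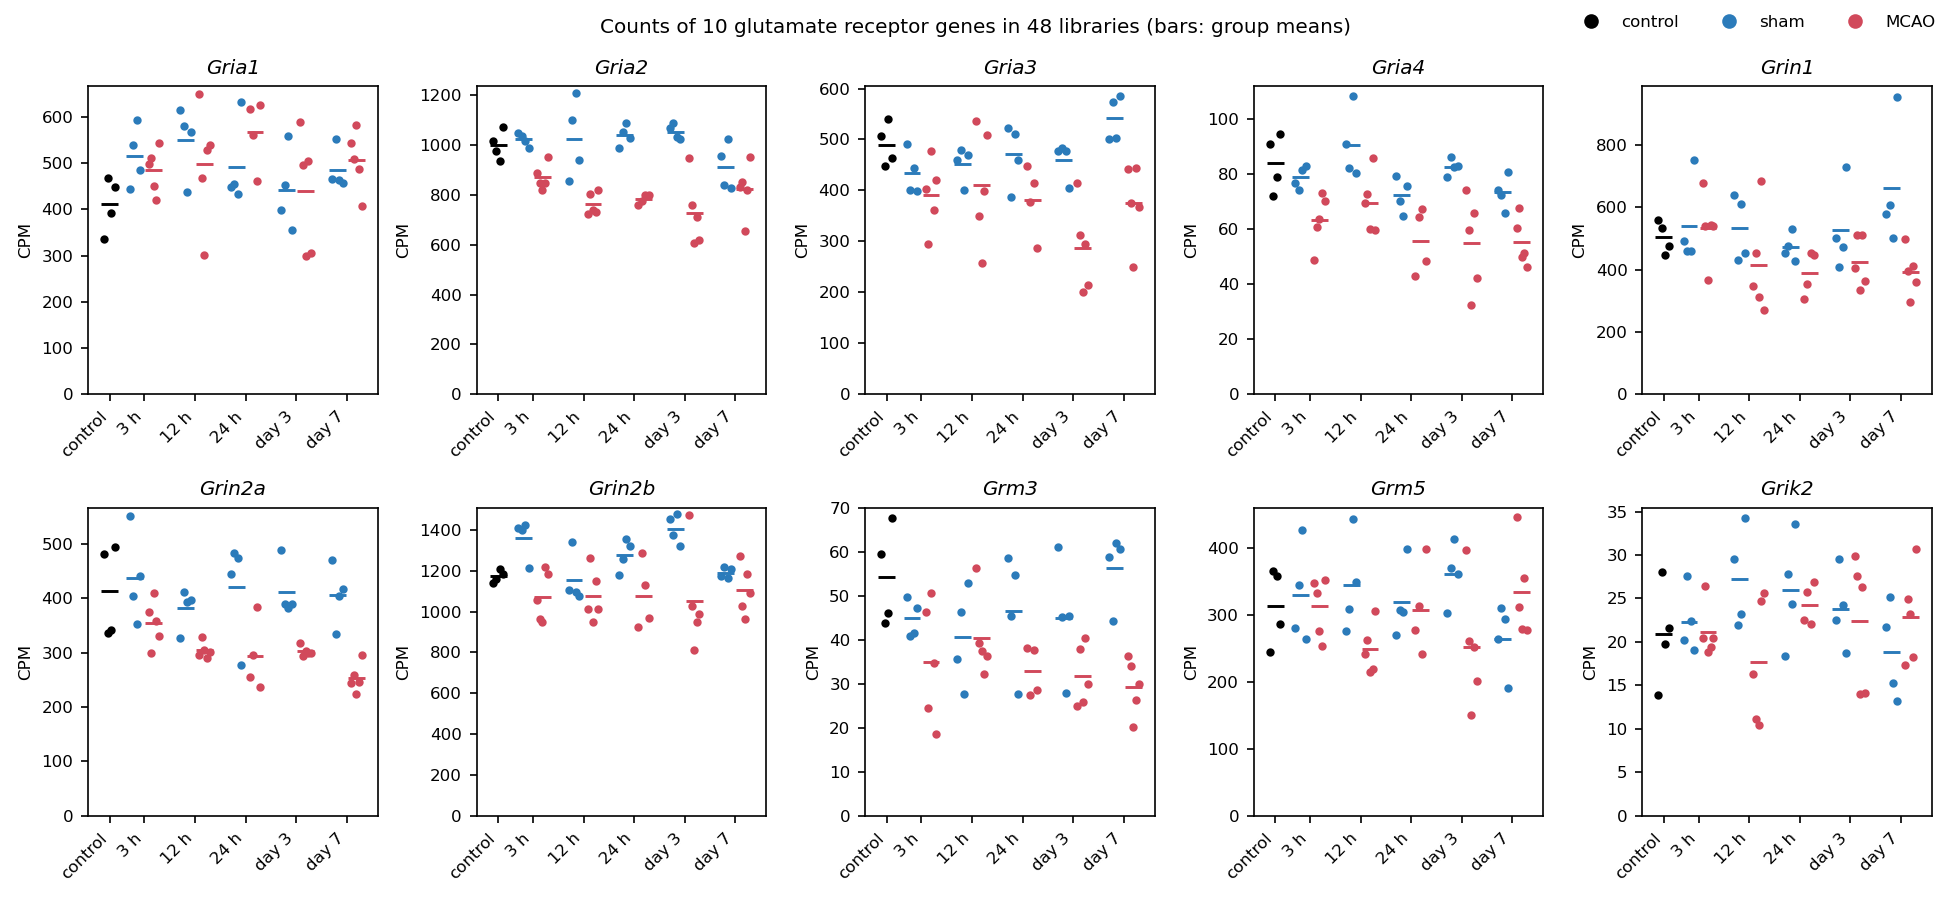
Level in CPM (y axis, starting at 0 in each panel) of the 10 genes in each of the 48 libraries by time (x axis), with control in black, sham in blue, MCAO in red and a bar at each group mean. In *Gria2* the MCAO points lie under the sham points at every time but day 7, whereas in *Gria1*, *Grm5* and *Grik2* they overlap at every time.

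*Gria3* (ENSMUSG00000001986.16, chromosome X, 41400854 to 41678601, plus strand), an AMPA receptor subunit that pairs with *Gria2* at cortical synapses, was lowest on day 3. The MCAO libraries of that day held 415.3, 312.7, 201.2, 294.4 and 215 CPM and the sham libraries 476.9, 484.2, 476.9 and 404.3 CPM. Replicate A of MCAO lay above the lowest sham library, the other 4 lay under all of them, and the lowest pair were replicates C and E. The log2 change was -0.68 (SE 0.17, adjusted p = 0.00816 in edgeR's quasi-likelihood test), and without the 6 libraries that stood apart it was -0.44 with an adjusted p of 0.212. Day 7 gave 442.4, 375.1, 249.2, 444.3 and 367.6 CPM after MCAO and 501.6, 574.4, 503.2 and 585.7 CPM in sham. The groups did not overlap there, and the log2 change was -0.53 (SE 0.17, adjusted p = 0.0464, and -0.37 with an adjusted p of 0.301 without the 6 libraries). Over the 5 times the level was 78% of sham (log2 change -0.36, SE 0.08, adjusted p = 8.74e-04).

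*Gria4* (ENSMUSG00000025892.15, chromosome 9, 4417896 to 4796234, minus strand) is the AMPA receptor subunit that fast-spiking interneurons and the thalamus use most. On day 3 it stood at 74.2, 59.64, 32.45, 65.92 and 42.3 CPM after MCAO and at 79.05, 86.31, 82.68 and 82.92 CPM in sham. All 5 MCAO libraries were under the sham libraries, which spanned a narrow range, and the log2 change was -0.59 (SE 0.16, adjusted p = 0.0149, and -0.31 with an adjusted p of 0.359 without the 6 libraries). At 3 h the groups did not overlap either, at 48.82 to 73.24 CPM after MCAO and 74.25 to 82.85 CPM in sham, but the change of -0.31 had an adjusted p of 0.617. The change at the other times was -0.38 at 12 h, -0.37 at 24 h and -0.41 on day 7, and none of the 3 passed. The mean over times was 75.1% of sham (log2 change -0.41, SE 0.07, adjusted p = 5.82e-05).

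*Gria1* (ENSMUSG00000020524.16, chromosome 11, 57011387 to 57330244, plus strand), the AMPA receptor subunit that is inserted into synapses during potentiation, did not pass at any time. Its mean over times was 498.7 CPM after MCAO and 496.9 CPM in sham, a log2 change of 0.00 with an SE of 0.08 and an adjusted p of 1. On day 3 the MCAO libraries held 589.3, 496.6, 299.6, 504.4 and 305.8 CPM and the sham libraries 398.9, 452.8, 557.8 and 355.6 CPM. Replicates C and E were again the lowest, while B and D lay above 3 of the 4 sham libraries and A above all 4. The change was -0.01 with all libraries and 0.26 without the 6 that stood apart. The group means of *Gria1* ranged from 410.6 ± 59.74 CPM (SD, n = 4) in control to 566.6 ± 75.68 CPM (SD, n = 4) in MCAO 24 h.

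Among the NMDA receptor genes, *Grin2a* (ENSMUSG00000059003.12, chromosome 16, 9567898 to 9995560, minus strand) fell to the lowest level on day 7. It encodes the subunit that rises as cortical synapses mature and gives the receptor a fast current. On day 7 the MCAO libraries held 244, 258, 223.7, 245.7 and 294.9 CPM and the sham libraries 470.1, 334.6, 403.9 and 417.4 CPM, with no overlap. The log2 change was -0.68 (SE 0.15, adjusted p = 0.00192 in edgeR's quasi-likelihood test), and -0.63 with an adjusted p of 0.0332 without the 6 libraries that stood apart. On day 3 the values were 318.2, 293.3, 303.6, 298.8 and 298.7 CPM after MCAO and 488.8, 388.2, 382.1 and 388.8 CPM in sham. The MCAO libraries of day 3, replicates C and E included, differed little among themselves and lay under all sham libraries (log2 change -0.45, SE 0.15, adjusted p = 0.0469). Without the 6 libraries the change was nearly the same, -0.44, but with fewer libraries the adjusted p was 0.184. At 24 h the change was -0.52 with an adjusted p of 0.185, where sham replicate D, at 277.4 CPM, lay within the MCAO range of 236.6 to 383.4 CPM. The mean over times was 301.3 CPM after MCAO and 411.4 CPM in sham, which is 72.9% (log2 change -0.46, SE 0.07, adjusted p = 1.25e-06).

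*Grin1* (ENSMUSG00000026959.13, chromosome 2, 25291181 to 25319187, minus strand) encodes the subunit that every NMDA receptor needs. The MCAO libraries of day 7 held 496.7, 394.9, 295, 411.7 and 361.3 CPM and the sham libraries 579.4, 606.2, 501 and 954.7 CPM. The groups did not overlap, and sham replicate D stood far above the other 3. The log2 change was -0.75 (SE 0.21, adjusted p = 0.015), and without the 6 libraries that stood apart, this replicate among them, it was -0.43 with an adjusted p of 0.259. At 3 h the change was -0.02, at 12 h -0.37, at 24 h -0.27 and on day 3 -0.31, and none of these passed. Over the 5 times *Grin1* was at 78.8% of sham (log2 change -0.34, SE 0.09, adjusted p = 0.00821).

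*Grin2b* (ENSMUSG00000030209.14, chromosome 6, 135713233 to 136173511, minus strand), the subunit of slow NMDA currents that prevails in the young brain and outside the synapse, had the smallest change of the 7 genes that passed. Its mean over times was 1077 CPM after MCAO and 1278 CPM in sham, or 84.5% (log2 change -0.24, SE 0.06, adjusted p = 0.00145). On day 3 it stood at 1472, 1026, 811.8, 947.8 and 990.1 CPM after MCAO and at 1451, 1374, 1476 and 1323 CPM in sham. MCAO replicate A was among the sham libraries and the other 4 were well under them (log2 change -0.42, SE 0.12, adjusted p = 0.0226, and -0.29 with an adjusted p of 0.29 without the 6 libraries). The change on day 7 was -0.11 with an adjusted p of 0.65.

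Of the metabotropic receptors, *Grm3* (ENSMUSG00000003974.6, chromosome 5, 9485541 to 9725170, minus strand), which lowers cAMP and is found on astrocytes and oligodendrocytes as well as neurons, had the largest change of any of the 10 genes at a single time. On day 7 the MCAO libraries held 36.34, 34.1, 20.23, 26.39 and 30.06 CPM and the sham libraries 58.91, 44.33, 62.14 and 60.67 CPM. There was no overlap, and the mean was 52.2% of sham (log2 change -0.94, SE 0.24, adjusted p = 0.00815). Without the 6 libraries the change was -0.79 with an adjusted p of 0.112. At 12 h the groups had nearly the same mean, 40.38 ± 9.293 CPM (SD, n = 5) after MCAO and 40.7 ± 11.21 CPM (SD, n = 4) in sham. Over the 5 times *Grm3* was at 72.8% of sham (log2 change -0.46, SE 0.11, adjusted p = 0.00177).

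*Grm5* (ENSMUSG00000049583.14, chromosome 7, 87584168 to 88134907, plus strand), which couples to Gq and releases calcium from stores, did not pass with all libraries at any time or in the mean over times (log2 change -0.16, SE 0.09, adjusted p = 0.25). On day 3 the MCAO libraries held 397.7, 261.2, 150.8, 252.5 and 201.4 CPM and the sham libraries 302.8, 371.1, 414.3 and 361.6 CPM. All but MCAO replicate A were under the sham libraries, and the log2 change was -0.52 (SE 0.19, adjusted p = 0.0854). It passed on this day when that replicate was left out. The sign was the other on day 7, with 446.5, 312, 279.6, 356 and 277.4 CPM after MCAO and 264.8, 310.3, 293.8 and 191.6 CPM in sham. The groups overlapped there, and the change of 0.33 (SE 0.19) had an adjusted p of 0.296.

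The kainate receptor subunit *Grik2* (ENSMUSG00000056073.14, chromosome 10, 49094833 to 49788766, minus strand) did not pass at any time. Its mean over times was 21.67 CPM after MCAO and 23.64 CPM in sham (log2 change -0.13, SE 0.11, adjusted p = 0.542). The largest change was that at 12 h, where the MCAO libraries held 16.32, 11.16, 10.43, 24.71 and 25.61 CPM and the sham libraries 29.59, 21.9, 23.27 and 34.27 CPM. Replicates D and E of MCAO lay within the sham range, and the log2 change of -0.64 (SE 0.25) had an adjusted p of 0.202. At this depth a change of that size in *Grik2* could not be told from the spread between libraries.

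The balance between subunits within a library does not depend on the scaling of the libraries, so the ratios *Gria2* to *Gria1* and *Grin2a* to *Grin2b* were compared as well, with exact two-sided permutation tests in 10 comparisons. None passed after Benjamini-Hochberg adjustment over the 10. With 5 against 4 libraries 126 permutations are possible (70 with 4 against 4), and the smallest exact permutation p they allow, 0.0159, gives an adjusted p of 0.159 when 1 comparison alone reaches it, so a single comparison could not pass. The log2 ratio of *Grin2a* to *Grin2b* on day 7 was -2.13 ± 0.20 (SD, n = 5) after MCAO and -1.56 ± 0.23 (SD, n = 4) in sham, a difference of -0.57 with that smallest p. All 5 MCAO libraries were under all sham libraries in this ratio. For *Gria2* to *Gria1* the difference was -0.51 on day 3 (0.77 ± 0.24 after MCAO and 1.27 ± 0.28 in sham, exact permutation p = 0.0476, adjusted p = 0.19). At 24 h it was -0.62 (0.48 ± 0.22 and 1.09 ± 0.27, exact permutation p = 0.0571, adjusted p = 0.19). The control libraries had a mean log2 ratio of 1.30 ± 0.22 (SD, n = 4) for *Gria2* to *Gria1* and of -1.53 ± 0.32 (SD, n = 4) for *Grin2a* to *Grin2b*.

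**Figure D4:**
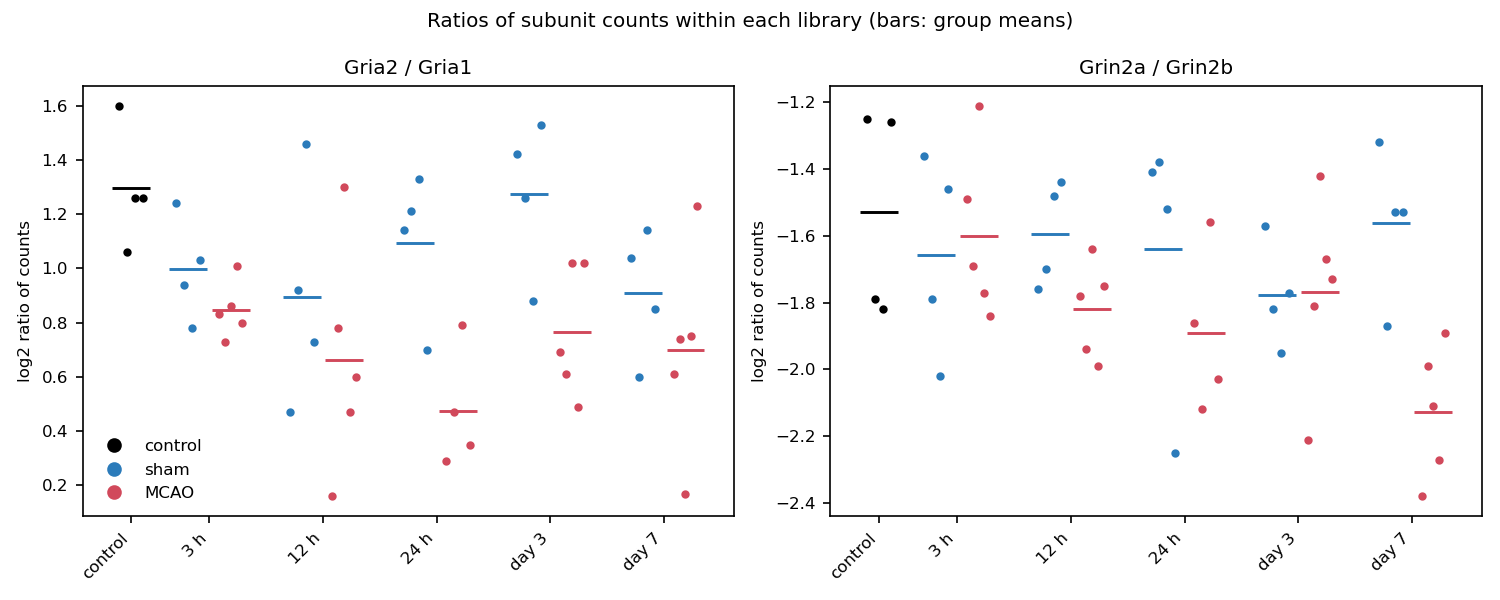
Log2 ratio of the counts of *Gria2* to *Gria1* and of *Grin2a* to *Grin2b* (y axes) in each of the 48 libraries by time (x axis), with a bar at each group mean. On day 7 the 5 MCAO libraries lie between -2.38 and -1.89 in the ratio of *Grin2a* to *Grin2b*, under the 4 sham libraries at -1.87 to -1.32.

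Against the intact control, a comparison that uses the same 4 control libraries at every time, the receptor genes that passed were again lower after MCAO. No gene passed at 3 h or 24 h, where 0.371% and 0.666% of all genes did, but *Gria4* passed at 24 h without the 6 libraries that stood apart (log2 change -0.59, adjusted p = 0.0239). At 12 h *Gria2* passed (log2 change -0.39, adjusted p = 0.0488 in edgeR's quasi-likelihood test, 2.31% of all genes). On day 3 (6.75% of all genes) *Gria3* fell most clearly (log2 change -0.77, adjusted p = 0.0029), and *Gria2* (-0.46, adjusted p = 0.00656), *Gria4* (-0.62, adjusted p = 0.0139) and *Grm3* (-0.77, adjusted p = 0.0376) passed as well. On day 7 (3.62% of all genes) *Grin2a* (log2 change -0.71, adjusted p = 0.00239), *Gria4* (-0.61, adjusted p = 0.0264) and *Grm3* (-0.88, adjusted p = 0.0242) passed. The stricter call was met by *Gria3* on day 3 (3.09% of all genes) and *Grin2a* on day 7 (1.5% of all genes). Without the 6 libraries that stood apart neither call was kept, and 0 genes passed at 0.05 on day 3, where the changes were -0.52 in *Gria3*, -0.31 in *Gria2*, -0.34 in *Gria4* and -0.65 in *Grm3*. On day 7 *Grin2a* (-0.66, adjusted p = 0.0142) and *Gria4* (-0.57, adjusted p = 0.0298) still passed, and *Grm3* did not (-0.78, adjusted p = 0.103).

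The surgery without occlusion left no difference past the test. In the mean of the 5 sham groups against control 0 of the 10 genes passed in edgeR's quasi-likelihood test, where 0.0501% of all genes did. None had an unadjusted p under 0.05, as 4.78% of all genes did. None met the stricter call, as 0.02% of all genes did, and DESeq2 called none either. The largest change was 0.27 in *Gria1* (SE 0.15, adjusted p = 1), and the median of the 10 was 0.03.

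In the order of the 11 group means, all 6 sham and control groups ranked above all 5 MCAO groups in *Gria2*, *Gria3*, *Gria4*, *Grin2a*, *Grin2b* and *Grm3*, an order that 1.62% of all genes tested had. The lowest group was MCAO day 3 in *Gria2* (728.4 ± 137.5 CPM, SD, n = 5), *Gria3*, *Gria4* and *Grin2b*, and MCAO day 7 in *Grin2a* (253.3 ± 26.36 CPM, SD, n = 5) and *Grm3*. Most neighbours in these orders did not differ beyond their spread. Of 10 neighbouring pairs in each gene, all were within it in 7 genes, 9 in *Grin2a* and in *Grin2b*, and 8 in *Gria3*.

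The other genes of the glutamate synapse were followed in 4 lists. Of 15 other receptor subunits that were tested (*Grm6* had too few counts) 3 were lower and none higher in the mean over times, with a median log2 change of -0.13. They were *Grm2*, a presynaptic metabotropic receptor, at 15.76 CPM after MCAO and 24.16 CPM in sham (log2 change -0.63, SE 0.17, adjusted p = 0.00699), the kainate subunit *Grik4* (-0.34, adjusted p = 0.0135) and the delta receptor *Grid1* (-0.23, adjusted p = 0.0239). On day 7 *Grik4* was at 28.31 CPM after MCAO and 54.83 CPM in sham (log2 change -0.96, SE 0.22, adjusted p = 0.00377, and -0.86 with an adjusted p of 0.0656 without the 6 libraries). In the mean over times, *Grm2* alone of the 3 passed without those libraries. *Grm7*, the most abundant of this list, had a change of -0.15 with an adjusted p of 0.397.

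Auxiliary subunits, which set how receptors gate and traffic, numbered 15, of which 3 were lower and 1 higher in the mean over times (median -0.15). *Cacng5*, a regulator of AMPA receptors of the stargazin family, rose from 15.33 CPM in sham to 24.66 CPM after MCAO (log2 change 0.65, SE 0.18, adjusted p = 0.00946 in edgeR's quasi-likelihood test). The lower ones were *Cacng3*, *Cnih3* and *Syndig1*, of which *Syndig1* changed most (log2 change -0.50, adjusted p = 0.00216), and *Cnih3* did not pass without the 6 libraries. *Cacng2*, or stargazin, which carries AMPA receptors to the synapse, passed on day 7, at 77.55 CPM after MCAO and 137 CPM in sham (log2 change -0.82, SE 0.21, adjusted p = 0.00757, and -0.85 with an adjusted p of 0.0388 without the 6 libraries). *Cnih2*, the most abundant of the list, had a change of 0.13 with an adjusted p of 0.418.

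Of 19 scaffold and trafficking partners 4 were lower and 2 higher (median -0.13). The higher ones were *Nptx2*, an immediate early pentraxin that clusters AMPA receptors, and *Homer3*. *Nptx2* stood at 209.5 CPM after MCAO and 38.05 CPM in sham at 3 h (log2 change 2.45, SE 0.42, adjusted p = 0.00132), a time at which none of the 10 receptor genes passed. *Homer3* was at 9.197 and 2.518 CPM on day 3 (log2 change 1.85, SE 0.46, adjusted p = 0.00467, and 1.60 with an adjusted p of 0.0666 without the 6 libraries). *Homer1* and *Homer2*, whose proteins tie metabotropic receptors to the postsynaptic density, fell on day 3, with a log2 change of -0.81 in *Homer1* (SE 0.19, adjusted p = 0.00281) and of -0.81 in *Homer2* (SE 0.21, adjusted p = 0.00831). *Homer1* still passed without the 6 libraries (-0.83, adjusted p = 0.0124) and *Homer2* did not (-0.55, adjusted p = 0.232). *Homer1* passed on day 7 too (-0.84, adjusted p = 0.00273), as did *Nptx1*, at 337.3 CPM after MCAO and 577.5 CPM in sham (-0.77, adjusted p = 0.00474). These 2 changes were -0.67 and -0.58 without the 6 libraries, and neither passed. *Dlgap1*, the most abundant of the list, fell on day 3 from 1669 to 1036 CPM (-0.69, SE 0.17, adjusted p = 0.00526, and -0.54 with an adjusted p of 0.101 without the 6 libraries).

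Glutamate transport and metabolism held 12 genes, of which 4 were lower and 1 higher (median -0.11). *Slc1a2*, the main astrocytic glutamate transporter and the most abundant of the list, had 2319 CPM after MCAO and 2932 CPM in sham (log2 change -0.34, SE 0.06, adjusted p = 6.50e-05). *Glul*, glutamine synthetase, had a change of -0.33 (adjusted p = 4.18e-05) and *Slc1a1*, a neuronal glutamate transporter, one of -0.20 (adjusted p = 0.0446, and 0.142 without the 6 libraries). *Slc1a4*, a neutral amino acid transporter, rose, with 91 CPM after MCAO and 47.39 CPM in sham at 12 h (log2 change 0.95, SE 0.18, adjusted p = 0.00149).

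**Figure D5:**
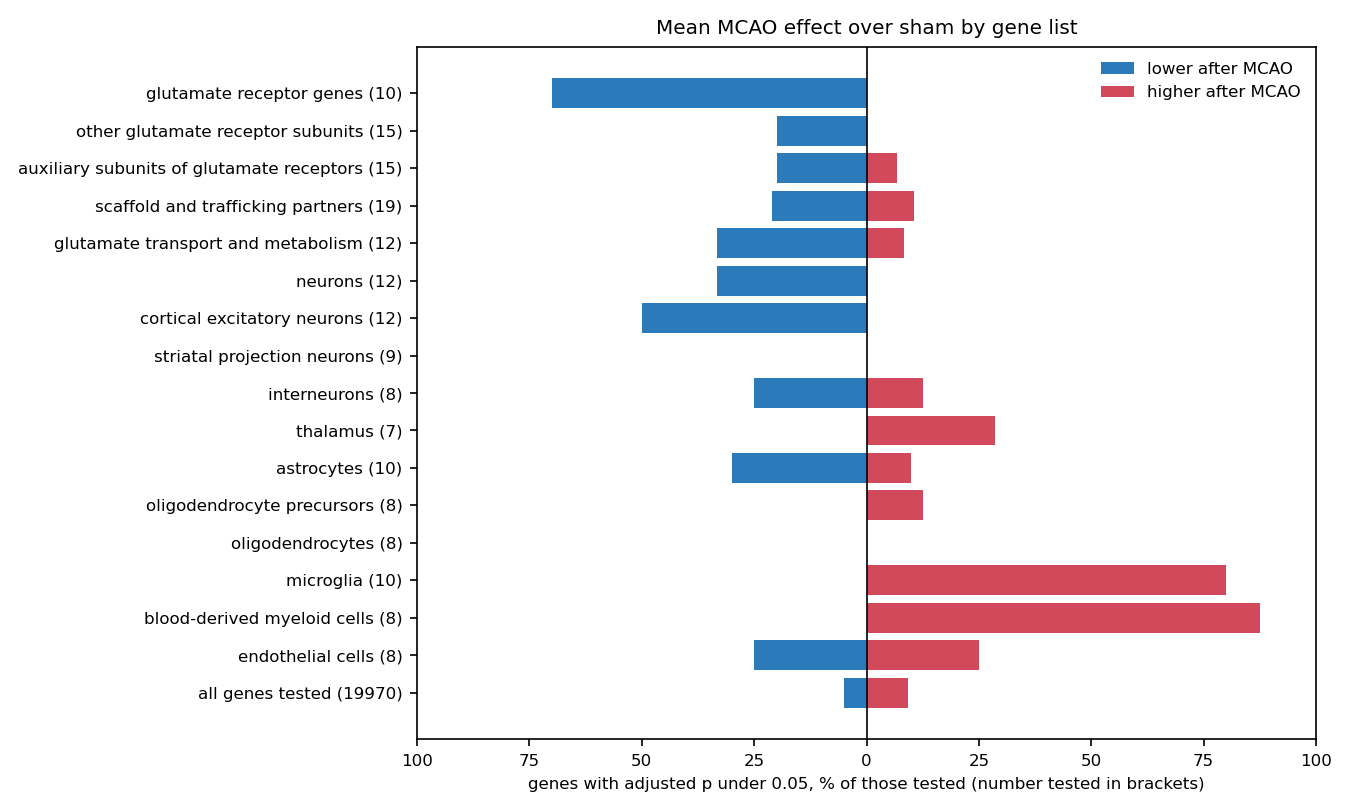
Share of the genes of each list (y axis, number tested in brackets) with an adjusted p under 0.05 in the mean MCAO effect over sham (x axis, percent of those tested, lower to the left and higher to the right). The 10 receptor genes have 7 lower and 0 higher, the microglial list has 8 of 10 higher, and over all genes tested 5.11% were lower and 9.18% higher.

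Markers of the cells in the tissue moved in the same libraries. Of 12 neuronal genes 4 were lower in the mean over times (median -0.10), and *Syt1*, the most abundant, had a log2 change of -0.30 (adjusted p = 4.39e-04 in edgeR's quasi-likelihood test). Their sum was 9297 ± 1664 CPM (SD, n = 5) in MCAO day 3 against 12270 ± 428.3 CPM (SD, n = 4) in sham, and 9961 ± 1478 CPM (SD, n = 5) in MCAO day 7 against 11791 ± 353 CPM (SD, n = 4) in sham. Without the 6 libraries the sum was 10260 ± 1424 CPM (SD, n = 3) in MCAO day 3, and on day 7 it was 10600 ± 476.4 CPM (SD, n = 4) after MCAO and 11690 ± 354.7 CPM (SD, n = 3) in sham. At 3 h the sums were 11603 ± 182 CPM (SD, n = 5) and 11587 ± 428 CPM (SD, n = 4). Of 12 genes of cortical excitatory neurons 6 were lower (median -0.23). *Nrgn*, the most abundant of them, was at 7938 CPM after MCAO and 18970 CPM in sham on day 7 (log2 change -1.26, adjusted p = 0.00122), and the sum of the 12 was 12670 ± 1941 CPM (SD, n = 5) against 25469 ± 6175 CPM (SD, n = 4). The change of *Nrgn* without the 6 libraries was -0.98 (adjusted p = 0.04), and the sums were 13340 ± 1413 CPM (SD, n = 4) and 22550 ± 2435 CPM (SD, n = 3).

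Microglial genes rose, 8 of 10 in the mean over times with a median of 1.02. Their sum was 2105 ± 970.2 CPM (SD, n = 5) in MCAO day 3 and 403.3 ± 42.71 CPM (SD, n = 4) in sham, with *Cx3cr1* as the most abundant, and 1486 ± 653.3 CPM (SD, n = 3) in MCAO day 3 without replicates C and E. Of 8 genes of blood-derived myeloid cells 7 rose, with *Lyz2* as the most abundant at 909 CPM in MCAO day 7 and 8.588 CPM in sham day 7 (log2 change 6.70, and 4.14 without the 6 libraries). The sum of the 8 was 568.7 ± 583.7 CPM (SD, n = 5) in MCAO day 3 and 10.52 ± 4.652 CPM (SD, n = 4) in sham day 3, where *Ly6c2*, *Retnlg* and *Chil3* were at 0 in all 4 libraries. Without replicates C and E the sum in MCAO day 3 was 183.8 ± 137 CPM (SD, n = 3). At 12 h, where *Gria2* passed, it was 470.4 ± 771.3 CPM (SD, n = 5) after MCAO, from 35.6 to 1841 CPM, and 9.627 ± 4.443 CPM (SD, n = 4) in sham. There 5 of the 8 genes were higher, where 1.39% of all genes passed in either direction. S100a8 was at 194.7 and 1.007 CPM (adjusted p = 3.63e-04 in edgeR's quasi-likelihood test) and S100a9 at 212.2 and 0.5291 CPM (adjusted p = 3.41e-04). Both encode neutrophil calcium-binding proteins. Without the 6 libraries 6 of the 8 genes were higher at 12 h. The neuronal and the cortical excitatory list had 0 genes past the test at 12 h, with and without those libraries. Of the 9 striatal genes 0 passed at 12 h with all libraries and 2, *Tac1* (-2.64) among them, without the 6, where the sum of the list was 506.9 ± 74.48 CPM (SD, n = 4) after MCAO and 1524 ± 881.9 CPM (SD, n = 3) in sham.

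Of 8 interneuron genes 2 were lower on day 7, as were 3.98% of all genes. *Pvalb*, the calcium buffer of fast-spiking interneurons, was at 30.05 CPM after MCAO and 154.4 CPM in sham (log2 change -2.36, SE 0.53, adjusted p = 0.00259 in edgeR's quasi-likelihood test), and *Vip*, a neuropeptide of another interneuron class, at 14.99 and 45.41 CPM (-1.59, SE 0.33, adjusted p = 0.00136). Both still passed without the 6 libraries (-2.07 with an adjusted p of 0.0388, and -1.40 with 0.0299). In the mean over times both were lower and *Sst*, the most abundant of the 8 genes, was higher (0.26, adjusted p = 0.0297). Of 8 genes of oligodendrocyte precursors 4 were higher on day 7, when 9.24% of all genes passed in either direction and 3.98% were lower. The 4 were *Gpr17* (1.99), *Pdgfra* (1.36), *Cspg4* (1.18) and *Matn4* (1.13). *Gpr17* alone passed without the 6 libraries (1.95, adjusted p = 7.81e-04), where *Pdgfra* was at 0.80, *Cspg4* at 0.72 and *Matn4* at 1.08. *Olig1*, the most abundant of them, was higher on day 3 (0.85, adjusted p = 0.00471, and 0.67 with an adjusted p of 0.0996 without the 6 libraries) and, with *Gpr17*, lower at 12 h. In the mean over times *Olig2* alone passed, higher. Of 8 endothelial genes *Pecam1* and *Cdh5* were higher and *Slco1a4* and *Itm2a* lower in the mean over times, while the most abundant, *Flt1*, had a change of 0.08 (adjusted p = 0.532). At 12 h *Slco1a4* (-1.12, adjusted p = 0.00348) and *Itm2a* (14.03 CPM after MCAO and 28.2 CPM in sham, adjusted p = 0.00954) were lower, and still passed without the 6 libraries. *Itm2a* had the other sign on day 7, where it was higher (0.77, adjusted p = 0.0134, and 0.48 with an adjusted p of 0.302 without the 6 libraries), and its change differed between the times (adjusted p = 6.17e-04), so its mean does not stand for all of them. *Pecam1*, *Cdh5* and *Cldn5* were higher on day 3, of which *Pecam1* alone passed when the 6 libraries were left out (2.02 with them and 1.18 without, adjusted p = 0.0191), with *Cdh5* at 1.15 and *Cldn5* at 0.98 there. Astrocytes had 3 of 10 genes lower in the mean over times, with *Slc1a2* as the most abundant of the list, and 1 higher. Without the 6 libraries 1 was lower and 0 higher at 12 h, and 0 lower and 2 higher on day 7. The astrocyte sum at 12 h was then 3586 ± 84.26 CPM (SD, n = 4) after MCAO and 4736 ± 717.2 CPM (SD, n = 3) in sham. On day 7 it was 4642 ± 159.9 CPM (SD, n = 4) and 3894 ± 142.4 CPM (SD, n = 3), so the mean does not stand for all times. The thalamic list had *Prkcd* and *Rgs16* higher of 7 in the mean over times, while its most abundant gene, *Ntng1*, had a change of -0.07 (adjusted p = 0.896). *Prkcd* was higher on day 3, at 16.39 and 4.063 CPM (2.02, adjusted p = 0.00402), and on day 7 (1.58, adjusted p = 0.0279), and *Tcf7l2* on day 7 (0.73, adjusted p = 0.029). None of these 3 changes passed without the 6 libraries, where they were 1.31, 1.36 and 0.70. Of the oligodendrocyte list (8 genes, *Mbp* the most abundant) and the striatal projection neuron list (9 genes, *Ppp1r1b* the most abundant) no gene passed in the mean over times. The sum of the striatal genes varied widely, from 189.8 to 4587 CPM over the MCAO libraries.

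How each receptor gene followed these markers within its own group is a description over 48 libraries. Depth differed between libraries, and all genes of a library share its piece of tissue and its depth. For deviations from the group means, Pearson's r with the neuronal list was highest in *Gria3*, at 0.80, and r with the list of cortical excitatory neurons was highest in *Grin2a*, at 0.69, and *Grm3*, at 0.56. The lowest values with the microglial list were -0.67 in *Gria2* and -0.58 in *Grin2b*. With the striatal list r ran from -0.34 in *Grin2a* to 0.39 in *Grin1*, a gene that passed, and was 0.31, 0.30 and 0.35 in *Gria1*, *Grm5* and *Grik2*, which did not. The part of these cell types in the differences between MCAO and sham was not tested.

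Between the receptor genes themselves the same deviations gave r of 0.63 for *Gria1* and *Grik2*, 0.58 for *Gria1* and *Grm5*, and 0.57 for *Grin2a* and *Grm3*. *Gria1* and *Grin2a* had an r of -0.47. Over the levels of all 48 libraries, group differences included, the genes of at least 10 CPM most like each receptor gene were *Pcdh17* (r = 0.86) and *Doc2b* (0.78) for *Gria1*, *Sorbs2* (0.84) for *Gria2*, *Rab3a* (0.86) and *Rtn1* (0.85) for *Gria3*, and *Gas7* (0.76) and *Rims1* (0.75) for *Gria4*. For the NMDA receptor genes they were *Psd* (0.89) and *Rnf208* (0.86) for *Grin1*, *Kcnh7* (0.88) and *Epha4* (0.88) for *Grin2a*, and *Nol4* (0.81) and *Ncald* (0.78) for *Grin2b*. For the others they were *Atp2b2* (0.79) and *Osbpl3* (0.78) for *Grm3*, *Impact* (0.82) and *Hs6st2* (0.82) for *Grm5*, and *Prkar2b* (0.61) and *Rapgef6* (0.60) for *Grik2*. These r are descriptions over libraries that share group differences.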

How the data were processed

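Per the labels, total RNA was made into QuantSeq 3′ libraries that carried ERCC spike-ins. After trimming and the removal of ribosomal reads the authors aligned with STAR 2.5.2b to GRCm38, and counts per gene were taken with htseq-count (union mode, Gencode vM8). Used here are the raw counts that the authors deposited, 1 table per library. Their normalized matrix was not used. Alignments without a feature (median 23.5%), ambiguous (0.4%) or not unique (33.5%) were left out. Gencode vM21, on the same build, gave symbols for 46488 of 46983 identifiers. No column was without a sample, and 0 pairs of libraries were duplicates.

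Conditions and replicate letters came from the labels. The tests were made with edgeR 4.0.16 in R 4.3.3 (TMM, glmQLFit, glmQLFTest) on genes whose counts summed to more than 10, in 1 model of 11 groups with 13 comparisons. A gene passed at a Benjamini-Hochberg adjusted p under 0.05. It was called, by the rule of the study, when that p was under 0.01 and the log2 fold change over 0.58 in size. The biological coefficient of variation was 24.9%. Levels, ratios, correlations and figures were made with Python 3.11.15, numpy 2.4.6, scipy 1.17.1, pandas 2.3.3 and matplotlib 3.10.9, with a pseudocount of 1 in log2(CPM + 1). The fit was tested on simulated data.

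The receptor genes and all lists were chosen with earlier results of these data known. By rule, the genes named were the 10, the genes of the 4 synaptic lists called in an MCAO against sham comparison (at most 6 a list), the most abundant gene of each list and the 2 genes most like each receptor gene, of which 1 is not reported here. *Grid1*, *Cacng3*, *Cnih3*, *Syndig1*, *Glul*, *Slc1a1* and the cell markers beyond the most abundant were named after their values were seen. Alternatives were the size factors of DESeq2, DESeq2 1.42.0, other filters, only the groups compared, spike-in scaling, the replicate letter as a block, other call rules and each library left out. The fit without the 6 libraries that stood apart was chosen after seeing the data.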

Additional observations from a re-analysis of the deposited data

Results flagged for a closer look

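Each of the 10 genes was looked at in each of the 11 groups for a single library far from the rest of its group, and 9 of 110 were marked, where chance marks about 1 in 20. Most were sham libraries. *Gria1* was at 631.8 CPM in sham 24 h replicate D, where the other 3 held 434.1 to 454.4 CPM, and at 553 CPM in sham day 7 replicate B, where the others held 458 to 465 CPM. *Gria3* was at 404.3 CPM in sham day 3 replicate D, under the 476.9 to 484.2 CPM of the others. *Grin1* reached 751.7 CPM in sham 3 h replicate D (others 458.7 to 492.7 CPM), while *Grin2b* in the same library was low, at 1213 CPM (others 1399 to 1426 CPM). *Grin2a* was at 488.8 CPM in sham day 3 replicate A (others 382.1 to 388.8 CPM), and *Grin2b* at 1338 CPM in sham 12 h replicate B (others 1077 to 1105 CPM). Of the MCAO libraries, *Grm3* was at 56.36 CPM in 12 h replicate A (others 32.35 to 39.31 CPM) and *Grik2* at 26.45 CPM in 3 h replicate B (others 18.88 to 20.5 CPM).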

How the results depend on the processing

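In the mean effect 0 genes met the call of an adjusted p under 0.01 with a fold change in every fit, and with all libraries in edgeR 7 passed at 0.05 and at 0.01 without a fold change. When the 6 libraries were left out 7 passed at 0.05, and *Gria3* (adjusted p = 0.0101), *Grin1* (0.0183) and *Grm3* (0.0155) were over 0.01. Of the counts of called genes 105 of 130 kept their place under the other settings, and 178 of 200 when a library was left out. Log2 changes were followed for MCAO against sham at each time and in the mean. Of these 550 of 600 kept their place under the other settings, and 819 of 880 when a library was left out. The rest depended on the setting, and the cause was not tested. Against sham, the count of 1 on day 3 became 5 at 0.05, 2 at 0.01 without a fold change, 3 with spike-in scaling and 0 without the 6 libraries or with only the groups compared. The count of 2 on day 7 became 4 at 0.05, 1 with the replicate block or with only the groups compared and 0 with spike-in scaling or without the 6 libraries, and at 12 h 0 became 1 at 0.05. Against control, the count of 1 on day 3 became 4 at 0.05, 2 at 0.01 without a fold change, with DESeq2 or with filterByExpr, 5 with spike-in scaling and 0 without the 6 libraries or with only the groups compared. The count of 1 on day 7 became 3 at 0.05, 2 with DESeq2 and 0 without the 6 libraries or with only the groups compared, and at 12 h 0 became 1 at 0.05. With 1 library left out these counts ranged from 0 to 4 and 0 to 3 on days 3 and 7 against sham, and from 0 to 2 and 0 to 1 against control.

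Signs turned only in log2 changes that did not pass. They were *Grin1* at 3 h with the replicate block (0.05), *Grm3* at 12 h with the size factors of DESeq2 (0.01), DESeq2 (0.01), the block (0.04) and without the 6 libraries (0.02), and at 24 h *Grm5* (0.04) and *Grik2* (0.00) with spike-ins. On day 3 *Gria1* turned with the size factors (0.01), DESeq2 (0.01), filterByExpr (0.00) and without the 6 libraries (0.26), as did *Grik2* without them (0.23) and *Gria1* on day 7 (-0.02). In the mean effect *Gria1* was at 0.00 with no filter and with only the groups compared, and at -0.04 with spike-ins. Leaving out 1 library gave -0.12 to 0.18 in *Grin1*, -0.17 to 0.08 in *Grm5* and -0.17 to 0.04 in *Grik2* at 3 h, -0.17 to 0.16 in *Grm3* at 12 h, -0.21 to 0.06 in *Grm5* and -0.24 to 0.04 in *Grik2* at 24 h, -0.14 to 0.13 in *Gria1* and -0.21 to 0.04 in *Grik2* on day 3, and -0.03 to 0.03 in *Gria1* in the mean effect.

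Same-lettered MCAO and sham libraries did not deviate together (correlations from -0.31 to 0.17, median 0.045, 8 of 20 pairs over 0.1), so the letters name the libraries only. Spike-in scaling moved the median of all genes by -0.22 on day 3 and 0.14 on day 7 against sham and left 5 receptor genes past 0.05 on day 3 and 1, *Grm3*, on day 7. Calls over all genes were 463 higher and 131 lower on day 3 with spike-ins and 750 and 52 without, and on day 7 403 and 86, and 413 and 285. Without the 6 libraries all genes had 297 calls on day 3 in place of 802, and 105 on day 7 in place of 698. With only the groups compared there were 339, 302 and, at 12 h, 13 in place of 82, and with DESeq2 1088 on day 7, 179 at 12 h and 475 in place of 98 for the difference between times. Depth limits *Grik2* and *Grm3* most.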
